A study of Homo sapiens with 20 samples.

Results

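The guides described here are 106 sets of 4 consecutive guide numbers whose abundance was lower at day 14 than at day 0 in both HAP1 and HEK293FT cells. They were selected on their measured changes, among the 4174 sets with at least 3 guides in the tables of both lines, of which they make up 2.54%. A set qualified when its mean log2 change from day 0 to day 14 was below -1 in HAP1 and below -0.5 in HEK293FT. The 106 sets hold 423 guides in the HAP1 table and 422 in the HEK293FT table. These same changes chose the sets, so their size is given as a description with no test.

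The study followed guide RNA abundance in pooled lentiviral screens by amplicon sequencing of genomic DNA, with 20 libraries in all, of which 8 are used here. HAP1 is a near-haploid line derived from a chronic myelogenous leukaemia, and HEK293FT is a line of embryonic kidney origin. Both lines carried nuclear-localised RfxCas13d under doxycycline control, received 1 common guide library at a low multiplicity of infection, and were kept in puromycin, blasticidin and doxycycline. Each line had 2 libraries at day 14 after induction and 2 at day 0, from separate infection replicates.

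Cas13d is a nuclease that cuts RNA, not DNA, and is directed to RNA that its guide matches. A guide against the transcript of a gene that cells need for growth is lost from a pool as the cells that carry it are outgrown, whereas a non-targeting guide should keep its share. Genes needed by most human cell types (ribosome, proteasome, splicing and replication genes are the textbook examples) are commonly lost in several lines, and other genes only in some. Several guides against 1 transcript usually differ in how well they work. The tables name guides by number, so the genes behind the sets and the guide sequences were not used here.

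Levels are given as a percentage of the level of the non-targeting guides in the same library, and a set's level is the geometric mean of its guides. The authors normalised each line's table by itself, by a step not given in the sources used here, so HAP1 and HEK293FT values are not tested against each other. The sequencing depth of these libraries is unknown. Of 250 sets built in the same way from non-targeting guides, 0 met both limits and 1 was below the HEK293FT limit; their changes ran between -0.45 and 0.35 in HAP1 and between -0.57 and 0.36 in HEK293FT. The scaling holds these guides near 0 on average. It also sets the reference level by them, so their spread is no yardstick for member sets with low levels at day 0.

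In HAP1 the 106 sets had a median level of 4.94% and 3.95% in the 2 day 14 libraries, against 22.0% and 31.5% in the 2 day 0 libraries. Their median change was -2.95 on the log2 scale, with a range from -5.72 to -1.09. In HEK293FT the day 14 libraries had median levels of 16.3% and 21.0%, against 32.4% and 34.5% in the day 0 libraries. The median change there was -0.97, from -3.69 to -0.50. Over all 4174 sets the medians were 0.04 in HAP1 and -0.03 in HEK293FT.

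In every one of the 106 sets both day 14 libraries lay below both day 0 libraries, in HAP1 (24.1% of all sets) as in HEK293FT (32.4% of all sets). By limma, 104 of the sets were called lower in HAP1, where 12.2% of all sets were, and 74 in HEK293FT, where 3.14% of all sets were. The rule used these contrasts, so the counts describe the choice. The exceptions in HAP1 were the sets gID_00553 to gID_00556, at -3.67 with an adjusted p of 0.0567, and gID_10993 to gID_10996, at -2.69 with an adjusted p of 0.0553; both were picked out after their values were seen. A change below -4 in HAP1 was reached by 17 sets and one below -2 in HEK293FT by 9.

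The HAP1 change was 2.86 times the HEK293FT change at the median, and between 1.07 and 8.04 times. The limit was deeper in HAP1 and the tables were normalised separately, so nothing is read from this order. Across the 106 sets the changes in the lines correlated with a Pearson r of 0.571 and a Spearman rho of 0.565, over sets that share the same 8 libraries and were cut at a limit in each line. Single guides were less uniform, and 33 of the 422 guides present in both tables had the lower change in HEK293FT.

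The set gID_11981 to gID_11984 had the lowest mean of the 2 changes. Its level in HAP1 was 2.24% and 1.20% at day 14, against 81.0% and 91.9% at day 0, a change of -5.72 ± 0.27 (SE, n = 2 per day). In HEK293FT it was 9.26% and 12.4% at day 14, against 86.5% and 89.2% at day 0, a change of -3.03 ± 0.12 (SE, n = 2 per day). Both day 14 libraries lay far below both day 0 libraries in each line.

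Near it in the numbering, gID_11989 to gID_11992 had the lowest HEK293FT change of all members. It stood at 7.19% and 6.63% in the HEK293FT day 14 libraries, against 88.6% and 89.0% in the day 0 libraries, a change of -3.69 ± 0.08 (SE, n = 2 per day). The HAP1 levels were 6.05% and 2.44% in the day 14 libraries, against 68.5% and 110.7% in those of day 0. The change in HAP1 was -4.50 ± 0.33 (SE, n = 2 per day). All 4 guides of this set were called lower in both lines, a share to be read against 6.43% of all guides in HAP1 and 1.08% in HEK293FT. Its guide gID_11991 was the one of the 4 with the deepest change in HEK293FT, at -5.38, and it was at -4.79 in HAP1.

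The set gID_04017 to gID_04020 stood at 1.82% and 1.43% in the HAP1 day 14 libraries, against 73.0% and 76.4% in the day 0 libraries. Its HAP1 change was -5.53 and its HEK293FT change -2.53. The change was carried by 3 of its 4 guides. The first, gID_04017, stood at 100.1% and 89.3% in the HAP1 day 14 libraries, against 123.1% and 122.2% in the day 0 libraries, and its change in HEK293FT was 0.02. The last, gID_04020, stood at 0.232% and 0.258% at day 14 in HAP1, against 45.2% and 55.6% at day 0, a change of -7.68. With the lowest signal of these libraries at 0.939, the size of so deep a change rests on values at the bottom of the scale.

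The other 5 sets among the 8 with the lowest mean of both changes were gID_13161 to gID_13164, gID_06169 to gID_06172, gID_02233 to gID_02236, gID_14009 to gID_14012 and gID_12493 to gID_12496. Their HAP1 changes were -5.60, -5.31, -4.89, -4.33 and -4.15, in that order, and their HEK293FT changes were -1.84, -1.86, -2.25, -2.73 and -2.51. Every guide of these 5 sets was called lower in HAP1. In HEK293FT all 4 guides were called in gID_02233 to gID_02236, gID_14009 to gID_14012 and gID_12493 to gID_12496, and 3 of 4 in the others. The HEK293FT value of gID_14012 differed between its day 14 libraries, at 0.804% and 6.60%, with 118.6% and 88.8% at day 0.

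In a few sets the lines were close. The set gID_04229 to gID_04232 had changes of -3.08 in HAP1 and -2.89 in HEK293FT. Its HAP1 levels were 10.1% and 8.62% on day 14, against 69.5% and 90.4% on day 0. Its HEK293FT levels were 9.20% and 12.6% on day 14, against 84.4% and 75.8% on day 0. Its guide gID_04229 changed least of the 4 in both lines, at -0.53 in HAP1 and -1.61 in HEK293FT. The lowest guide differed, and was gID_04232 in HAP1, at -4.26, and gID_04230 in HEK293FT, at -3.64.

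The sets gID_15669 to gID_15672 and gID_10949 to gID_10952 were close as well. The first was at -2.02 in HAP1 and -1.86 in HEK293FT, and the second at -1.46 and -1.28. The set gID_15649 to gID_15652 had -2.08 in HAP1 and -1.91 in HEK293FT, but a single library weighed on the second value. Its guide gID_15651 stood at 29.0% and 36.1% in the HEK293FT day 14 libraries, against 2428% in day 0 replicate 1 and 218.7% in day 0 replicate 2. Without that day 0 replicate the set's HEK293FT change was -1.56.

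At the other end, gID_12501 to gID_12504 had the largest ratio between the lines. In HAP1 it had 3.54% and 2.24% on day 14, against 72.1% and 91.5% on day 0, a change of -4.85. In HEK293FT it had 72.8% and 71.8% on day 14, against 105.7% and 114.2% on day 0, a change of -0.60. Of its guides, gID_12503 alone was called lower in HEK293FT, at -1.30 with an adjusted p of 0.00142 by limma. The set gID_02589 to gID_02592 showed -4.20 in HAP1 and -0.76 in HEK293FT, where its adjusted p by limma was 0.148.

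The guides of a set differed among themselves. The distance from the lowest to the highest guide had a median of 2.84 log2 units in HAP1 and 1.52 in HEK293FT. In HAP1 all 4 guides lay below -1 in 55 of the 106 sets, 3 in 35 sets, 2 in 15 and 1 guide in 1 set. In HEK293FT all 4 lay below -0.5 in 24 sets, 3 in 40 sets, 2 in 39 and 1 guide in 3 sets. Of the guides, 11 of 423 were at or above 0 in HAP1 and 24 of 422 in HEK293FT.

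By limma 324 of the 423 guides were called lower in HAP1, where 6.43% of all guides were, with 39 sets called at all 4 guides, 39 at 3, 23 at 2 and 5 at 1. In HEK293FT 136 of the 422 were, against 1.08% of all guides, with 9 sets called at all 4 guides, 11 at 3, 21 at 2, 25 at 1 and 40 at none. Without HEK293FT day 14 replicate 2 the median change of the member sets in that line was -1.21, against -0.97 with it. Over all sets the median was -0.04 without it, against -0.03 with it. The number of guides called moved as well in that fit, which has 1 library at day 14.

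By the range of guide changes averaged over both lines, the widest sets were gID_04017 to gID_04020, gID_11457 to gID_11460, gID_15777 to gID_15780 and gID_02993 to gID_02996. In gID_11457 to gID_11460 the first guide was at 0.23 in HAP1 and 0.27 in HEK293FT, and the last at -6.22 in HAP1 and -3.05 in HEK293FT. In gID_15777 to gID_15780 the first guides were at -0.07 and -0.28 in HAP1, and the last at -3.23 and -6.14. The same 4 guides in HEK293FT were at -0.57, -0.07, -1.46 and -3.48. In these 2 sets the deepest changes were at the later guides in both lines.

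By the same average the narrowest sets were gID_02841 to gID_02844, gID_06297 to gID_06300, gID_01657 to gID_01660 and gID_10461 to gID_10464. In the first of them the guides lay between -1.995 and -1.42 in HAP1 and between -0.73 and -0.28 in HEK293FT. All 4 of these sets had low levels at day 0, between 13.9% and 34.3% over the 8 day 0 values of HAP1 and the 8 of HEK293FT.

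Guides are numbered such that the HAP1 change falls along the 4 places of most sets, in the members (80 of 104 complete sets, 76.9%) as in all sets (78.8% of 4044). The order therefore says nothing independent about HAP1. Whether it also holds in HEK293FT was not part of the rule, which used the mean of a set and not the differences inside it. These differences still come from the same guides and libraries as the mean, and a set with little change leaves little room for them. Shares of members set against those of all sets are therefore not independent of the choice. Mean changes at places 1 to 4 in the members were -1.45, -2.54, -3.53 and -4.33 in HAP1 and -0.54, -0.90, -1.41 and -1.73 in HEK293FT. In HEK293FT the last guide was below the first in 92 of 104 complete member sets (88.5%), against 53.4% of all complete sets. It was so in 119 of 158 complete sets past the HAP1 limit only (75.3%). Among those past the HEK293FT limit only it was so in 15 of 24 (62.5%).

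The slope of the change over the places was tested per set with limma across all complete sets. In HEK293FT the slope was called lower at day 14 than at day 0 in 40 of 104 member sets and in 1.66% of all 4044 sets (67 sets). Members made up 59.7% of those 67. Of the 24 complete sets past the HEK293FT limit only, 4 were called, and of the 158 past the HAP1 limit only, 10 were. The slope was called higher at day 14 in 0.198% of all sets (8 sets), with 0 members among them. The median slope of the members was -0.37 log2 units per place, against -0.01 over all sets, and 91 of 104 were below 0. In the 250 complete non-targeting sets 49.2% of slopes were below 0. For HAP1, where the numbering builds it in, 84 of 105 member sets were called and 13.0% of all sets, or 55 member sets without HAP1 day 0 replicate 2, when the count over all sets was 270 against 540 with it.

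A fit without a library has 1 library on that day, and the part of the smaller fit in its counts was not tested. The count of 40 moved when single libraries were left out. It dropped to 10 when HEK293FT day 0 replicate 2 was left out and to 21 when day 0 replicate 1 was, and it was 70 with day 14 replicate 2 left out. Over all complete sets the count of 67 moved too, to 18, 42 and 169 in these same fits. The number of member slopes below 0 moved less, between 90 and 95 of 104 with a HEK293FT library left out.

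The steepest HEK293FT slope belonged to gID_02993 to gID_02996, at -1.61 ± 0.19 per place (SE, n = 2 per day). Its adjusted p by limma was 0.000697. Its guides stood, by number, at 75.5%, 67.5%, 9.21% and 5.61% in day 14 replicate 1 and at 74.7%, 63.7%, 3.40% and 3.98% in day 14 replicate 2. At day 0 they stood at 67.5%, 102.5%, 72.9% and 67.1% in replicate 1 and at 51.6%, 100.5%, 83.4% and 79.4% in replicate 2. The first guide did not fall below its day 0 level in either library, and the last 2 kept under 10%. The HAP1 changes of the 4 guides were -1.02, -2.47, -5.65 and -5.85.

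The next slopes were those of gID_07253 to gID_07256 at -1.34, with an adjusted p of 0.000974 by limma, gID_14009 to gID_14012 at -1.34, with 0.00576, and gID_04017 to gID_04020 at -1.31, with 0.000914. The highest member slope, 0.38 with an adjusted p of 0.0738 by limma, was that of gID_13161 to gID_13164. Its first guide, gID_13161, was its lowest in HEK293FT at -3.68, while the other guides were at -0.27, -1.34 and -2.05 by number.

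Without using the numbering, the deviations of guides from their set mean correlated between the lines with a Pearson r of 0.718 and a Spearman rho of 0.728 over the 416 guides of complete member sets. Guides of a set share a set mean and each line's 4 libraries, and so are not independent. The lowest guide was the same in both lines in 65 of 104 sets (62.5%), and the highest in 62 (59.6%). Over all complete sets these shares were 28.02% and 27.03%. In the 158 complete sets past the HAP1 limit only, r was 0.515, the lowest guide matched in 52.5%, and 10 slopes were called lower in HEK293FT. Those sets had a median HEK293FT change of -0.22.

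Guides of the library fell into 2 ranges of abundance at day 0, above and below 50% of the non-targeting level, with 2 of 4174 sets within 0.25 log2 units of that border, which was set after the values were seen. The upper range held 505 sets (12.1%), and 48 of the 106 member sets (45.3%). Of the sets past the HAP1 limit only, 17.9% were in it, and of the 25 past the HEK293FT limit only, 72.0% were. Put the other way, members were 9.51% of the sets in the upper range and 1.58% of the 3669 in the lower range. What separates the ranges is not given in the labels.

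The 48 abundant member sets had a median level of 76.0% and 93.4% in HAP1 at day 0, and the 58 others 16.3% and 23.4%. The median HAP1 changes were -3.01 in the abundant sets and -2.93 in the others, and the median HEK293FT changes were -1.20 and -0.83. All 48 abundant sets were called lower in HEK293FT, where 18.4% of all 505 abundant sets were, and 26 of the 58 others, against 1.04% of all sets of the lower range. Slopes were called in 29 of the 48, against 8.13% of all abundant sets, and in 11 of 56 others, against 0.734% of all sets of the lower range. The rule used the set changes, so the first 2 counts describe the choice, and the slope counts are not independent of it. All 8 sets with the lowest mean of both changes belonged to the abundant range.

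Replicates of a day differed for the members, and differently in the ranges of abundance. At day 14 in HEK293FT, replicate 1 was below replicate 2 in all 58 members of the lower range, with a median difference of -0.65. In the 48 abundant members the median difference was -0.02, and it was below 0 in 27 of them. With day 14 replicate 1 alone the median HEK293FT change was -1.21 in the abundant members and -1.21 in the others, and with replicate 2 alone it was -1.17 and -0.52. Sets of the lower range that passed neither limit had a median difference of -0.02 between these replicates. Those past the HAP1 limit only had one of -0.18, below 0 in 116 of 133 sets.

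Membership moved accordingly. Without HEK293FT day 14 replicate 1, 45 of 48 abundant members and 30 of the 58 others still met both limits, and 79 sets met them in all. Without day 14 replicate 2, 47 and 58 did, and 128 sets met them in all. The part of the infection replicate in these differences was not tested.

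In HAP1 the day 0 libraries differed for the members. Replicate 1 was below replicate 2 in 103 of 106 sets, with a median difference of -0.44, against 61.3% of all sets and a median of -0.04. The sets past the HAP1 limit only had a median of -0.31, with 147 of 162 below 0. The difference was -0.60 in members of the lower range, where all 58 were below 0, and -0.21 in the abundant ones, where 45 of 48 were. The median HAP1 change of the members was -2.71 against day 0 replicate 1 alone and -3.20 against replicate 2 alone. At day 14 the median difference between the HAP1 replicates was 0.28 in the abundant members and -0.23 in those of the lower range. All 106 sets met both limits with any single HAP1 library left out.

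Member sets were unevenly spread over the guide numbers, and 34 of 106 (32.1%) stood next to another member. The same share for the sets past the HAP1 limit only is not given here. The spread is therefore not read as particular to the members. Divided into 10 equal stretches, the numbering held 8, 12, 10, 9, 5, 11, 12, 24, 4 and 11 members. The densest stretch of 28 sets, a length chosen after the values were seen, ran over gID_11933 to gID_12044 and held 16 members. No stretch of that length that did not overlap it held more than 6. It contained 2 runs of 4 adjoining members, gID_11969 to gID_11984 and gID_12013 to gID_12028, and 21 of its 28 sets were past the HAP1 limit.

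The 16 members of the stretch had a median change of -3.31 in HAP1 and -1.16 in HEK293FT, and the 90 others -2.82 and -0.89. Only 3 of the 16 were in the abundant range, and these were gID_11977 to gID_11980, gID_11981 to gID_11984 and gID_11989 to gID_11992. The first of them, picked out after its values were seen, was at -3.81 in HAP1 and -2.25 in HEK293FT.

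At the edges of the rule the values ran on without a gap. Just inside the HAP1 limit lay gID_01657 to gID_01660 at -1.09, gID_09177 to gID_09180 at -1.21 and gID_02485 to gID_02488 at -1.30. Just outside lay gID_11049 to gID_11052 at -0.97, gID_13945 to gID_13948 at -0.96 and gID_15093 to gID_15096 at -0.91. The HEK293FT changes of the last 3 were -0.64, -0.86 and -0.61.

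Just inside the HEK293FT limit lay gID_15813 to gID_15816 and gID_08633 to gID_08636, both at -0.50, and gID_15621 to gID_15624 at -0.51. Just outside lay gID_07677 to gID_07680 and gID_05441 to gID_05444, both at -0.48, and gID_07029 to gID_07032 at -0.47. The set gID_07677 to gID_07680 was at -4.32 in HAP1, with 1.01% and 1.05% at day 14 and 16.2% and 26.1% at day 0, and missed membership by its HEK293FT value alone. In all, 268 sets were below the HAP1 limit, of which 39.6% were members, and 131 below the HEK293FT limit, of which 80.9% were.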

How the data were processed

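Per the submitters' processing notes, cutadapt 1.13 and Bowtie 1.1.2 were used, with the build GRCh38 listed. The deposited unit is signal, since the authors normalised the guide values in a way not given in the sources used here. No values were pooled over replicates. Rows with no guide ID and no values (1 in HAP1, 120 in HEK293FT) were left out, and 17 and 16 repeated IDs were averaged (1 of them in a member set), which left 17690 and 17572 guides. The A375 and HfCas13d screens used other guide libraries and were not used here.

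Values were taken as log2 signal with no pseudocount and no filter. Each library was scaled by the mean over its non-targeting guides (999 in HAP1, 1000 in HEK293FT) after trimming 30% from each side. Set means, guides and within-set slopes (weights -0.3, -0.1, 0.1 and 0.3) were fitted with limma 3.58.1 in R 4.3.3, day 14 against day 0 within each line, with a variance trend, and Benjamini-Hochberg adjusted p under 0.05 over all features. The fits were tested on simulated data. Labels describe infection replicates. With 2 libraries per day, p-values and SEs rest on the spread between these libraries after limma draws it towards the trend over all features. They can be larger or smaller than the spread of a set's own libraries would give. The sets named are those with the lowest mean of both changes, the most and least alike in both lines, the widest and narrowest, those with the lowest HEK293FT slopes and those next to each limit. The border between the day 0 ranges and the length of the densest stretch were set after the values were seen. The members, lists and tests were chosen with earlier results of these data known.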

Additional observations from a re-analysis of the deposited data

How the results depend on the processing

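Of 104 values recomputed under alternatives, 95 stayed within 1.5 times their count or within the replicate spread. Most of them are counts, which cannot change direction. The median changes, over sets chosen for their low values, kept their sign. Pseudocounts of 1 and 10 gave 104 and 93 member sets, median scaling 103, total signal scaling 94, a minimum mean signal of 50 gave 73, the median over guides 97 and complete sets only 104. Limits of -1 in both lines gave 49. The median HAP1 change was -2.08 with a pseudocount of 10, which compresses low values. With a minimum mean signal of 50, 52 of the 58 member sets left in that fit had a HAP1 slope called lower. The numbering builds that slope in, and the share over all sets of that fit is not given here. The count is therefore not read as particular to the members. With a library left out there were between 79 and 128 member sets. Among the members, between 90 and 106 sets, 261 and 359 guides and 55 and 100 slopes were then called lower in HAP1, and between 69 and 106 sets, 121 and 271 guides and 10 and 70 slopes in HEK293FT. Over the whole tables, calls moved as well, between 410 and 520 sets and 270 and 1095 slopes in HAP1 (509 and 540 with all libraries) and between 162 and 354 sets and 18 and 169 slopes in HEK293FT (131 and 67). These fits have 1 library on a day, which is assumed to vary like the others. The cause was not tested.

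The replicate numbers name libraries and were not taken to pair them. Same-numbered libraries deviated oppositely between days (r = -0.44 in HAP1 and -0.33 in HEK293FT, across guides). With a replicate block, 106 sets, 334 guides and 87 slopes of the members were called lower in HAP1, and 104, 161 and 44 in HEK293FT, against 104, 324 and 84 and against 74, 136 and 40 without it. With the numbers crossed between days in the block, an alternative added after seeing the data, these were 94, 361 and 105 in HAP1 and 98, 263 and 51 in HEK293FT, with 369 sets and 138 slopes called over the whole HEK293FT table and 1867 slopes over that of HAP1. Whole-table counts of the block fit without crossing are not given here, so its member counts are not read as particular to the members. Among 580 values of the named sets, 13 lost and 15 gained a call, and 0 reversed. Depth is unknown, so the smallest signals have no counting error attached.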

Other observations

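The difference between the HAP1 day 0 libraries was ordered over the guide places of the member sets. Replicate 1 less replicate 2 averaged -0.26, -0.39, -0.54 and -0.59 log2 units at places 1 to 4, the order in which the HAP1 change itself falls. The sets past the HAP1 limit only showed the same order, with -0.16, -0.24, -0.40 and -0.48. Over the sets that passed neither limit the 4 means were -0.07, -0.03, -0.02 and -0.03. In HEK293FT the day 0 means of the members were -0.03, -0.08, -0.07 and -0.15. With 1 library on each side these differences have no replicate check.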
